A study of Mus musculus with 12 samples.

Results

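Intermediate filaments are the rope-like part of the cytoskeleton, and lamins are their relatives that line the inside of the nuclear envelope. The set described here holds 9 genes chosen by name, of 55401 gene identifiers counted: 6 encode cytoplasmic filament proteins (Vim, Nes, Gfap, Synm, Nefl and Nefm) and 3 encode lamins (Lmna, Lmnb1 and Lmnb2). All 9 passed the filter on low counts, and 16135 genes were tested in all. Poly(A) RNA was sequenced from 12 cultures of the subventricular zone, the germinal layer beside the lateral ventricles, of CD1 mice, an outbred strain. Postnatal oligodendrocyte precursor cell (OPC) cultures came from pups of postnatal day 0 to 2. Their primary neurospheres were dissociated and kept 2 days as a monolayer in medium with the growth factors FGF and PDGF-AA at 10 ng/mL. Adult neural stem cell (NSC) cultures were neurospheres, floating balls of stem and progenitor cells, from mice aged 2 months. Postnatal NSC cultures were neurospheres from pups of postnatal day 0 to 2. At both ages the neurospheres were cultured 6 to 7 days with the growth factors FGF at 10 and EGF at 20 ng/mL, heparin being at 2 ug/mL, and all media held 2% B27 supplement. No transgene or deletion is labelled in any group. Each group had 4 libraries, described as biological replicates from 4 independent litters. The OPC cultures differ from the neurospheres in medium and in growth as a monolayer, and from adult NSC also in the age of the mice. The parts of these differences cannot be told apart. In such bulk RNA, fewer cells of a type and less RNA per cell cannot be told apart.

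Vimentin, nestin and GFAP assemble into the filaments of neural stem cells and astrocytes. Nestin needs a partner such as vimentin to form filaments, and both are common labels of neural progenitors, while GFAP marks astrocytes and the astrocyte-like stem cells of the subventricular zone. Neurofilament proteins are the filament subunits of neurons. B-type lamins, encoded by Lmnb1 and Lmnb2, are made in nearly all cells, whereas the A-type lamins made from Lmna are scarce in many stem cells and more abundant in stiff, differentiated tissues.

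The libraries held 17226501 to 23651396 counts for postnatal OPC, 16756231 to 20064043 for adult NSC, and, sequenced deeper, 38928989 to 54801726 for postnatal NSC. The summed level of 10 OPC markers was 10185 to 15028 CPM (counts scaled by the normalised library size) in postnatal OPC. It was 5078 to 5398 CPM in adult NSC, and the postnatal NSC libraries had 5949 to 6317 CPM. By the edgeR test below, 6 of the 10 were higher and 0 lower in OPC than in postnatal NSC (45.1% of all genes called). In adult against postnatal NSC 0 were higher and 7 lower (53.1% of all genes). Among the 7 were Pdgfra (12.2 against 230 CPM) and Gpr17 (4.93 against 543 CPM). Olig1, Olig2 and Ptprz1, which make up much of the sum, were not called there. All 10 were higher in OPC than in adult NSC (51%). Of 9 neural stem and radial glia markers, all were above 1 CPM in every group, with sums of 5035 to 7295 CPM in postnatal OPC, 3875 to 4115 CPM in adult NSC and 3291 to 4913 CPM for postnatal NSC. Fabp7 alone averaged 4176 CPM in postnatal OPC, 2798 CPM in adult NSC and 2247 CPM in postnatal NSC, and so dominated the sums. Of the 9, 3 were higher and 4 lower in OPC than in postnatal NSC by the same test. In adult against postnatal NSC 0 were higher and 5 lower, and in OPC against adult NSC 5 were higher and 0 lower. Cell division genes (10 genes) set 1 library apart in each postnatal group. They summed to 1017 CPM in postnatal OPC 2, against 2546 to 2929 CPM in the other OPC libraries. In postnatal NSC 3 they summed to 1073 CPM, against 1766 to 2270 CPM in the other postnatal NSC libraries. Both libraries stay in the fit, and a call named below that is lost without them is given with its value. The sexes were unevenly spread: Xist, made from the inactive X chromosome, was at 544 to 1341 CPM in 3 postnatal NSC libraries, at 1154 CPM in adult NSC 1 and at 987 CPM in postnatal OPC 1, and at or under 0.52 CPM in the other 7. Postnatal NSC 4 and postnatal OPC 1 held Y-linked RNA as well (Ddx3y at 16.1 and 19.6 CPM), so neither can be assigned to a single sex. The other libraries with Xist had Ddx3y at or under 0.0702 CPM.

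Relative to postnatal NSC, the OPC monolayers had lower levels of the progenitor filament genes Vim, Nes and Gfap and of the lamin gene Lmna. Synm, Nefl, Nefm and Lmnb1 were higher. By edgeR's quasi-likelihood test with Benjamini-Hochberg adjustment over all genes, 4 of the 9 rose, 4 fell and 1 (Lmnb2) did not pass an adjusted p of 0.05. Of all genes tested, 45.1% were called in this comparison (22.4% higher, 22.7% lower). The median log2 fold change was 0.02 over the 9 genes and -0.01 over all genes tested. The ranges of the groups did not overlap for 6 of the 9 genes, against 34.9% of all genes tested.

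Adult NSC differed from postnatal NSC mainly in the neurofilament genes, which were higher, and in Gfap, Synm and Lmna, which were lower. Here 3 of the 9 genes rose, 3 fell and 3 did not pass the test, against 53.1% of all genes called (25.2% higher, 27.9% lower). Their median log2 fold change was 0.13 (-0.03 over all genes tested). Group ranges did not overlap for 6 genes, against 53.2% of all genes. In postnatal OPC against adult NSC, 2 genes rose (Synm and Lmnb1), 4 fell (Vim, Nes, Lmna and Nefm) and 3 did not pass, against 51% of all genes called (26.3% higher, 24.7% lower). The median was -0.57 for the 9 genes and 0.01 for all genes, and ranges did not overlap for 5 genes, against 56.6% of all genes. The shares of called members in both comparisons with adult NSC were thus 66.7%, not far from the background. The 3 comparisons share their libraries in pairs, so they are not independent of each other.

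**Figure D1:**
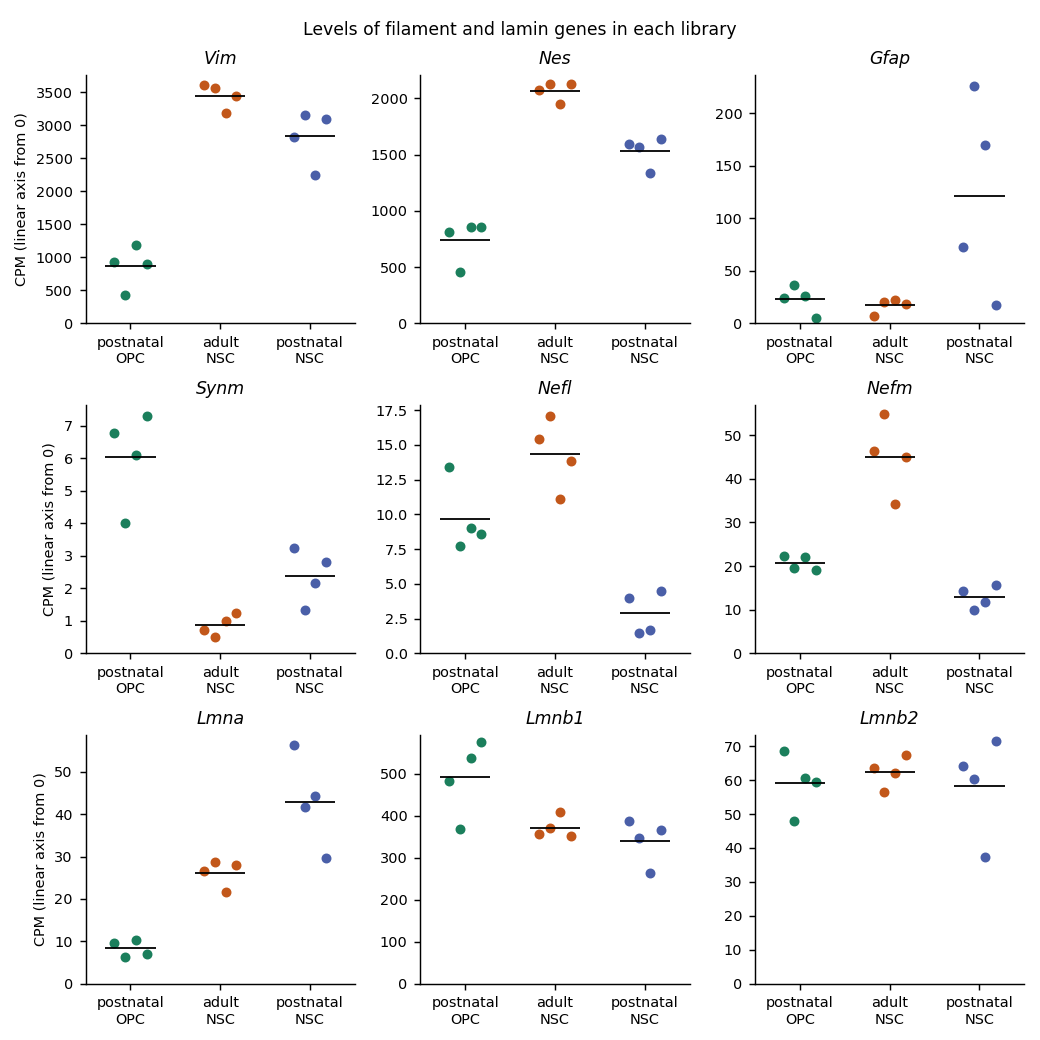
Level of each of the 9 genes (CPM, linear axis from 0) with postnatal OPC, adult NSC and postnatal NSC side by side. Each point is a library and each line a group mean. The OPC libraries lie below both NSC groups for Vim, Nes and Lmna, and above both for Synm.

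Vim encodes vimentin, the main filament protein of neural progenitors (ENSMUSG00000026728.9, chr2:13573927-13582826, plus strand, GRCm38). It was at 931, 429, 1190 and 905 CPM in postnatal OPC libraries 1 to 4. The adult NSC libraries had 3613, 3563, 3190 and 3450 CPM, and the postnatal NSC libraries had 2826, 3162, 2248 and 3095 CPM. All OPC libraries lay below all NSC libraries, with OPC 2 the lowest, and the adult libraries were all above the postnatal NSC ones. The mean was 864 ± 317 CPM in OPC (SD, n = 4), 3.28-fold lower than the 2833 ± 416 CPM of postnatal NSC (log2 fold change -1.71 ± 0.24 SE, edgeR adjusted p = 0.000143). Relative to adult NSC (3454 ± 189 CPM), OPC were 4-fold lower (log2 fold change -2.00 ± 0.24, edgeR adjusted p = 3.1e-05). Although their ranges did not overlap, adult and postnatal NSC did not differ by the edgeR test (0.29 ± 0.23, adjusted p = 0.314, 95% interval of the log2 fold change -0.22 to 0.79).

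Nes encodes nestin, the copolymer partner of vimentin (ENSMUSG00000004891.16, chr3:87971078-87980451, plus strand). Its levels were 814, 456, 854 and 856 CPM in postnatal OPC, 2072, 2129, 1952 and 2129 CPM in adult NSC and 1596, 1568, 1337 and 1635 CPM in postnatal NSC. The 3 groups did not overlap: OPC were lowest and adult NSC highest. OPC averaged 745 ± 194 CPM, 2.06-fold lower than the 1534 ± 134 CPM of postnatal NSC (-1.04 ± 0.17, edgeR adjusted p = 0.000381). Against the 2071 ± 83.4 CPM of adult NSC they were 2.78-fold lower (-1.47 ± 0.17, edgeR adjusted p = 2.15e-05). The difference between adult and postnatal NSC was small, 0.43 ± 0.17 on the log2 scale (edgeR adjusted p = 0.0434). This call was lost when any one adult NSC library, any one postnatal NSC library or postnatal OPC 1 was left out (adjusted p up to 0.0999, log2 fold change 0.37 to 0.47).

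Gfap encodes the glial fibrillary acidic protein of astrocytes (ENSMUSG00000020932.14, chr11:102887336-102900912, minus strand). It was the most variable of the 9 genes in the postnatal NSC libraries, at 72.3, 226, 170 and 17.2 CPM. Postnatal OPC libraries had 24, 36.7, 25.6 and 5.28 CPM, and adult NSC libraries had 7.31, 20.3, 22.3 and 18.1 CPM. Postnatal NSC 4 lay within the range of both other groups, and postnatal NSC 1 to 3 lay above all other libraries. Postnatal OPC averaged 22.9 ± 13 CPM, against 121 ± 93.9 CPM for the postnatal NSC libraries, a log2 fold change of -2.40 ± 0.70 (edgeR adjusted p = 0.0142). In a fit with the summed log2 level of 4 Y-linked genes as a covariate, that call was lost (-1.77, adjusted p = 0.144). Adult NSC averaged 17 ± 6.7 CPM, lower than postnatal NSC by 2.83 ± 0.72 on the log2 scale (edgeR adjusted p = 0.00583). OPC and adult NSC did not differ by the test (0.43 ± 0.69, edgeR adjusted p = 0.628, 95% interval -1.06 to 1.92), an interval too wide to show that they were alike.

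The other astrocyte markers did not follow Gfap as a whole. The summed level of the 9 markers was 1044 to 1852 CPM in postnatal OPC, 1868 to 1965 CPM in adult NSC and 1616 to 2612 CPM in postnatal NSC. Of 8 markers tested, 1 was higher and 3 lower in OPC than in postnatal NSC, and likewise 1 higher and 3 lower in adult than in postnatal NSC. The shares of all genes called there were 45.1% and 53.1%. Gjb6, an astrocyte connexin gene, was under 1 CPM in every group and at 0 in adult NSC. Within postnatal NSC the marker sum was lowest, at 1616 CPM, in library 4, which also had the least Gfap. Its highest value, 2612 CPM, was in library 3, while Gfap was highest in library 2 (226 CPM). Within postnatal OPC the order was the opposite, since OPC 2 had the lowest marker sum (1044 CPM) and the most Gfap (36.7 CPM). Whether the number of astrocyte-like cells sets the level of Gfap was not tested.

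Synm encodes synemin, a large filament protein that assembles only with partners such as vimentin (ENSMUSG00000030554.16, chr7:67730160-67759742, minus strand). It was scarce in all groups, at 6.78, 4, 6.11 and 7.3 CPM in postnatal OPC, 0.709, 0.52, 1.01 and 1.23 CPM in adult NSC and 3.25, 1.35, 2.15 and 2.81 CPM in postnatal NSC. OPC lay above, and adult NSC below, all postnatal NSC libraries, so that no ranges overlapped. OPC exceeded postnatal NSC 2.53-fold (6.05 ± 1.45 against 2.39 ± 0.828 CPM, log2 fold change 1.34 ± 0.31, edgeR adjusted p = 0.00408). They exceeded adult NSC 6.96-fold (0.869 ± 0.317 CPM in adult NSC, log2 fold change 2.80 ± 0.35, edgeR adjusted p = 4.09e-05). Adult NSC were 2.75-fold lower than postnatal NSC (-1.46 ± 0.34, edgeR adjusted p = 0.00376). The adult values rest on 10 to 20 counts per library. Exons covering 6.43% of the gene overlap other genes on the opposite strand, Gm45102 and Ttc23.

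Nefl and Nefm encode the light and medium neurofilament subunits of neurons. The genes lie on opposite strands of chromosome 14 and overlap (Nefl, ENSMUSG00000022055.7, chr14:68083863-68089095, plus strand; Nefm, ENSMUSG00000022054.11, chr14:68082590-68124846, minus strand). They share 1108 exon bases, 32.8% of the exons of Nefl and 19.2% of those of Nefm. As the strand setting of the counting is not given in the sources used here, how many reads belong to which gene is uncertain.

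Nefl was at 13.4, 7.75, 9.05 and 8.6 CPM in postnatal OPC, 15.4, 17.1, 11.1 and 13.8 CPM in adult NSC and 4.02, 1.49, 1.7 and 4.52 CPM in postnatal NSC. Both other groups lay above every postnatal NSC library and overlapped each other. OPC averaged 9.69 ± 2.51 CPM, 3.3-fold above the 2.94 ± 1.56 CPM of postnatal NSC (1.73 ± 0.34, edgeR adjusted p = 0.00152). Adult NSC averaged 14.3 ± 2.58 CPM, 4.89-fold above postnatal NSC (2.29 ± 0.35, edgeR adjusted p = 0.000252). OPC against adult NSC gave -0.57 ± 0.33 (edgeR adjusted p = 0.172, 95% interval -1.29 to 0.15). With only these 2 groups in the fit the adjusted p was 0.0365.

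Nefm was at 22.4, 19.5, 22 and 19.2 CPM in postnatal OPC, 46.3, 54.7, 34.1 and 45 CPM in adult NSC and 14.2, 10, 11.7 and 15.7 CPM in postnatal NSC. No ranges overlapped, with adult NSC highest and postnatal NSC lowest. Adult NSC (45 ± 8.46 CPM) exceeded postnatal NSC (12.9 ± 2.53 CPM) 3.49-fold, the smallest adjusted p of the 9 genes in that comparison (1.80 ± 0.16, edgeR adjusted p = 9.46e-06). OPC averaged 20.8 ± 1.63 CPM, 1.61-fold above postnatal NSC (0.69 ± 0.16, edgeR adjusted p = 0.00437) and 2.17-fold below adult NSC (-1.12 ± 0.16, edgeR adjusted p = 0.000127).

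Neuronal markers were higher in OPC than in postnatal NSC, as Nefl and Nefm were, but did not follow these genes in the other comparisons. The 10 neuroblast and neuron markers summed to 1444 to 2101 CPM in postnatal OPC, 989 to 1057 CPM in adult NSC and 745 to 1067 CPM in postnatal NSC. Most of each sum was Map2, which averaged 1416 CPM in postnatal OPC, 692 CPM in adult NSC and 717 CPM in postnatal NSC. In adult NSC Gap43 added 303 CPM. Of 9 tested, 7 were higher and 0 lower in OPC than in postnatal NSC. In adult against postnatal NSC, 2 were higher and 3 were lower. In OPC against adult NSC, where Nefm fell, 7 were higher and 1 was lower. The shares of all genes called were 45.1%, 53.1% and 51%, in the same order of comparisons. Stmn2 was under 1 CPM in OPC and adult NSC, and Rbfox3 in postnatal NSC. The part of neuronal cells in the neurofilament counts was not tested.

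Lmna encodes lamins A and C (ENSMUSG00000028063.15, chr3:88480147-88509956, minus strand). It lies 500 kb from Nes on the same chromosome, with 21 protein-coding genes between them. Its levels were 9.49, 6.4, 10.4 and 7.11 CPM in postnatal OPC, 26.5, 28.6, 21.6 and 27.9 CPM in adult NSC and 56.2, 41.8, 44.2 and 29.7 CPM in postnatal NSC. The groups did not overlap, OPC being lowest and postnatal NSC highest. OPC averaged 8.34 ± 1.89 CPM, 5.15-fold lower than the 43 ± 10.8 CPM of postnatal NSC (-2.37 ± 0.21, edgeR adjusted p = 6.68e-06). This was the smallest adjusted p of the 9 genes in that comparison. OPC were 3.13-fold lower than adult NSC (26.1 ± 3.18 CPM, -1.65 ± 0.20, edgeR adjusted p = 3.87e-05). Adult NSC were 1.64-fold lower than postnatal NSC (-0.72 ± 0.19, edgeR adjusted p = 0.00855).

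No B-type lamin gene differed by more than 1.44-fold in any comparison. Lmnb1 encodes lamin B1 (ENSMUSG00000024590.8, chr18:56707813-56753424, plus strand). It was at 483, 369, 538 and 577 CPM in postnatal OPC, 357, 371, 408 and 352 CPM in adult NSC and 387, 347, 263 and 366 CPM in postnatal NSC. OPC 1, 3 and 4 lay above all NSC libraries, and OPC 2 lay among them. OPC averaged 491 ± 90.4 CPM, 1.44-fold above the 341 ± 54.4 CPM of postnatal NSC (0.53 ± 0.14, edgeR adjusted p = 0.0103). With the Y-linked covariate this became 0.42 (adjusted p = 0.0536). Relative to adult NSC (372 ± 25.3 CPM) they were 1.32-fold higher (0.40 ± 0.14, edgeR adjusted p = 0.0342). That call was lost without adult NSC 1, 2 or 4 or without postnatal OPC 1, 3 or 4 (adjusted p up to 0.104). Adult and postnatal NSC did not differ by the test (0.13 ± 0.14, edgeR adjusted p = 0.482, 95% interval -0.19 to 0.44).

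Lmnb1 was lowest, in each postnatal group, in the library with the least cell division RNA. These libraries were OPC 2 (Lmnb1 at 369 CPM) and postnatal NSC 3 (263 CPM). This was not particular to Lmnb1, since Vim, Nes and Lmnb2 were also lowest in the same libraries. In a fit without both libraries the same numbers of the 9 genes were called in each direction in all 3 comparisons. None of the 10 cell division genes passed the edgeR test between OPC and postnatal NSC, against 45.1% of all genes. The smallest adjusted p was 0.0592, for Top2a. Both libraries were in that test and lay apart from their groups in these genes, so it cannot show that the groups were alike. Whether division bears on the lamin B1 level was not tested.

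Lmnb2 encodes lamin B2 (ENSMUSG00000062075.13, chr10:80901203-80918245, minus strand). It was at 68.5, 48, 60.6 and 59.3 CPM in postnatal OPC, 63.6, 56.6, 62.2 and 67.3 CPM in adult NSC and 64.2, 60.3, 37.4 and 71.6 CPM in postnatal NSC. All 3 groups overlapped, and postnatal NSC 3 was the lowest library. The 95% interval of the log2 fold change was -0.35 to 0.39 for OPC against postnatal NSC and -0.27 to 0.47 for adult against postnatal NSC. For OPC against adult NSC it was -0.45 to 0.29. Differences inside these bounds cannot be told from none.

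**Figure D2:**
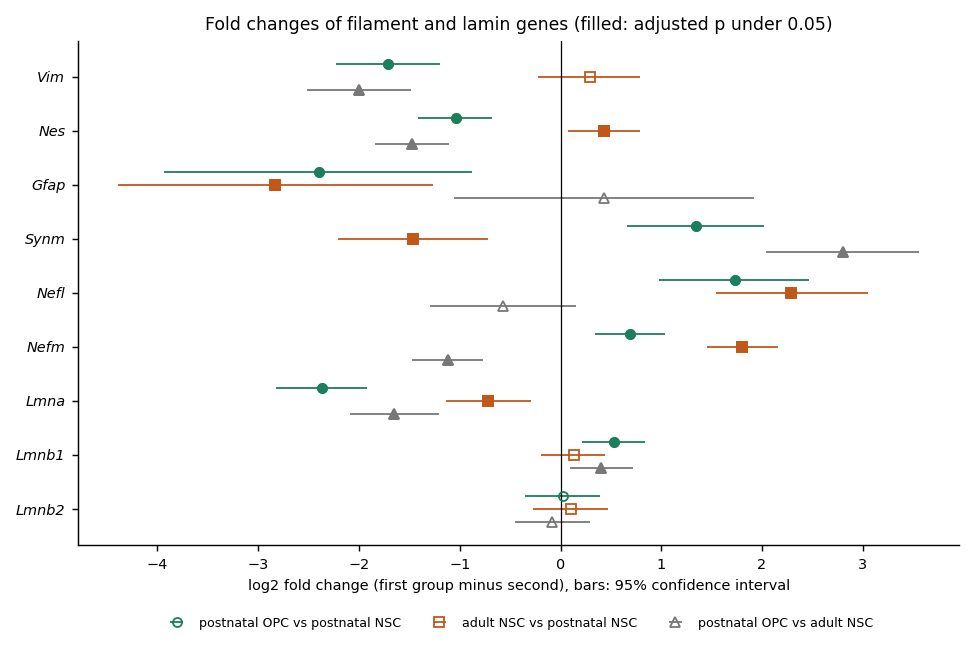
Log2 fold change of each of the 9 genes (horizontal axis) from the edgeR fit, with its 95% interval as a bar, for postnatal OPC against postnatal NSC (circles), adult NSC against postnatal NSC (squares) and postnatal OPC against adult NSC (triangles). Filled symbols have an adjusted p under 0.05. Lmna lies furthest from 0 relative to its interval in OPC against postnatal NSC (-2.37 ± 0.21), and all 3 intervals of Lmnb2 hold 0.

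Between genes, levels were compared per length, as counts per kilobase of exon scaled to the same sum in every library (TPM). In postnatal OPC the order of mean TPM was Vim 494, Lmnb1 451, Nes 315, Lmnb2 37.5, Gfap 15, Nefm 9.79, Nefl 7.81, Lmna 3.89 and Synm 2.07. There the libraries of Vim and Lmnb1 overlapped, as did those of Lmnb1 and Nes, of Gfap and Nefm, and of Nefm and Nefl. In adult NSC it was Vim 1984, Nes 880, Lmnb1 343, Lmnb2 39.7, Nefm 21.2, Lmna 12.2, Nefl 11.5, Gfap 11.1 and Synm 0.3 TPM, with overlap from Lmna to Gfap. Postnatal NSC had Vim at 1660, Nes at 665, Lmnb1 at 320, Gfap at 79.9, Lmnb2 at 37.8, Lmna at 20.5, Nefm at 6.21, Nefl at 2.41 and Synm at 0.839 TPM. There Gfap overlapped Lmnb2, and Lmnb2 overlapped Lmna. In both NSC groups Vim stood above Lmnb1 with no overlap, whereas in OPC they overlapped. How far apart the OPC means lay depends on the length used for each gene, since with the longest transcript Vim averaged 661 TPM and Lmnb1 388 TPM.

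**Figure D3:**
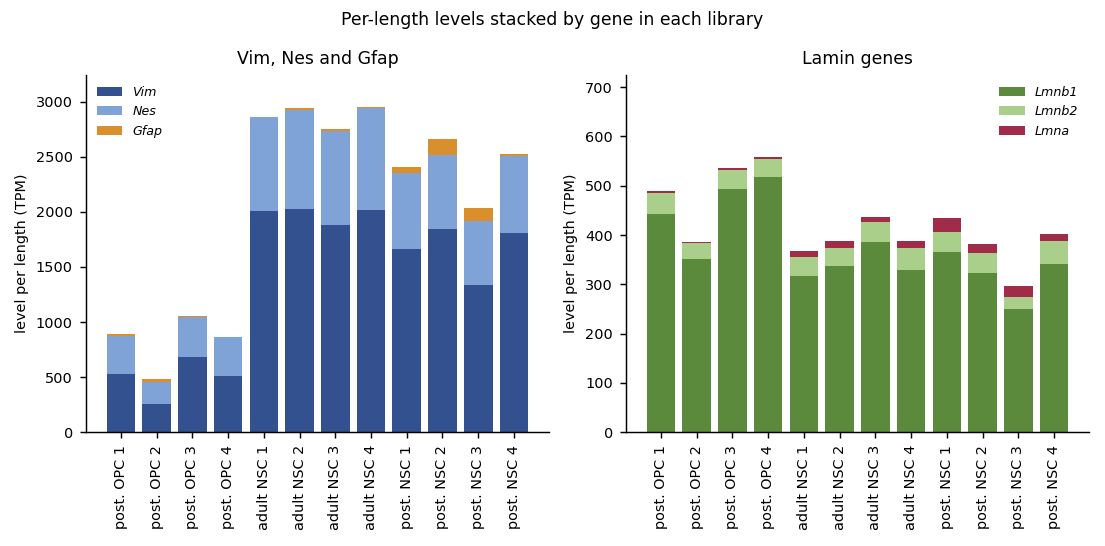
Levels per length (TPM, linear axis from 0) of Vim, Nes and Gfap (left) and of the 3 lamin genes (right), stacked in 1 bar per library. The OPC bars on the left are lower than all NSC bars, and the Lmna segment on the right is thinnest in OPC, where it is under 1% of every bar.

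The summed level per length of 23 cytoplasmic filament genes was 879 ± 235 TPM in postnatal OPC, 2923 ± 99.5 TPM in adult NSC and 2437 ± 268 TPM in postnatal NSC. The OPC libraries held 551 to 1107 TPM, under every NSC library (2064 TPM or more). Vim made up 55 ± 6.26% of this sum in OPC, 67.9 ± 0.728% in adult NSC and 67.9 ± 2.59% in postnatal NSC. Nes made up 36.1 ± 2.64% in OPC, 30.1 ± 0.672% in adult NSC and 27.4 ± 1.57% in postnatal NSC. These shares depend on the length used. With the longest transcript as gene length Vim made up 64.6%, 76.3% and 75.6% in the same order of groups, and Nes 27.5%, 21.9% and 19.7%. Together these 2 genes therefore supplied most of the filament RNA in every group.

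Among the 3 lamin genes the sum was 493 ± 76 TPM in postnatal OPC, 395 ± 29.2 TPM in adult NSC and 378 ± 59.2 TPM in postnatal NSC. The share of Lmna was 0.795 ± 0.15% in OPC, 3.12 ± 0.506% in adult NSC and 5.51 ± 1.58% in postnatal NSC. Its ranges (0.581% to 0.9% in OPC, 2.37% to 3.43% for adult NSC, and 3.5% to 7.2% for postnatal NSC) did not overlap. Lmnb1 supplied 91.5 ± 1.12% in OPC, 86.8 ± 1.33% in adult NSC and 84.6 ± 0.355% in postnatal NSC. Lamin RNA was thus mostly Lmnb1 in all cultures, and the A-type share was below 1% in every OPC library. With the longest transcript as gene length the mean Lmna share in OPC was 1.11%.

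The stretches before the annotated starts of Vim, Nes and Lmna are shown because these 3 genes were lower in OPC than in both NSC groups. They are 250 bases each from RefSeq (GRCm38.p6), read 5′ to 3′ on the gene's strand and ending at the base before the start. Vim is chr2:13574061-13574310 (plus strand), Nes is chr3:87970843-87971092 (plus strand) and Lmna is chr3:88503353-88503602 (minus strand, 1 of 2 annotated starts). Capitals mark matches, on either strand, to the TATA motif (TATAAA), to the CCAAT box or to the GC box (GGGCGG).
Vim: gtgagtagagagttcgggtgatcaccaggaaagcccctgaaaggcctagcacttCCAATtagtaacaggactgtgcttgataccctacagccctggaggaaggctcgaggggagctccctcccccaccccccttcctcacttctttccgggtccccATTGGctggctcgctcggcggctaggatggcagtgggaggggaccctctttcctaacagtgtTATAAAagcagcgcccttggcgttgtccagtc
Nes: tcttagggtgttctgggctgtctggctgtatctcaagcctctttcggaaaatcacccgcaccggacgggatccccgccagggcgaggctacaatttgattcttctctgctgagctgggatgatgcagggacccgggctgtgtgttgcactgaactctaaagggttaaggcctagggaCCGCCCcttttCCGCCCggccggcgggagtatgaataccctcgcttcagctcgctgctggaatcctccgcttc
Lmna: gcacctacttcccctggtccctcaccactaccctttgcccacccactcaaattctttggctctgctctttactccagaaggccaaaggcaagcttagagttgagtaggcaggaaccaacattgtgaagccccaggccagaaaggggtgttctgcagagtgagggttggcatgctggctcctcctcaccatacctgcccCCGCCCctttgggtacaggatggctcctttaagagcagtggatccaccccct

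The Vim stretch holds TATAAA at -32 from the start and CCAAT at -196 and, on the reverse strand, -94. The Nes stretch holds a pair of reverse-strand GC boxes at -73 and -62, and the Lmna stretch holds 1 at -52. Of 32851 RefSeq windows of 300 bases (250 before to 50 after a start), 13.6% hold TATAAA, 37.4% hold CCAAT and 35.7% hold GGGCGG on either strand. The AP-1 motif TGANTCA, present in 7.81% of the windows, matched the same Lmna window at +40, after the start and so outside the printed stretch, and matched neither the Vim nor the Nes window. The window of the other annotated Lmna start held neither TGANTCA nor GGGCGG, but held CCAAT at -131. RefSeq windows were given for 6 of the 9 genes (Vim, Nes, Gfap, Synm, Lmna and Lmnb2). In Gfap the single match was the STAT motif TTCNNNGAA at -2, found in 8.3% of all windows. These are matches of letters, not measured sites.

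AP-1 and immediate early genes, whose transcripts rise quickly after stimulation, differed steeply between the groups. The 7 genes summed to 75.7 to 226 CPM in postnatal OPC, 498 to 564 CPM in adult NSC and 4201 to 11304 CPM in postnatal NSC. All 7 were lower in OPC, and in adult NSC, than in postnatal NSC by the edgeR test, against 22.7% and 27.9% of all genes. The order of these sums over the groups is that of Lmna, but within groups the libraries differed. The library with the lowest sum had the least Lmna in postnatal OPC (OPC 2) and in adult NSC (adult NSC 3). In postnatal NSC it was library 1 (4201 CPM), which had the most Lmna (56.2 CPM). Their part in the level of Lmna or of any other of the 9 genes was not tested.

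Of 17 other cytoplasmic filament genes, 12 were too scarce to test, among them the heavy neurofilament gene Nefh (28 counts in all 12 libraries), Prph (56) and Des (73). Of the 5 tested, 1 rose and 1 fell in OPC against postnatal NSC, where 45.1% of all genes were called. Ina, which encodes the neuronal filament protein alpha-internexin, was at 30.8, 46.3, 20.6 and 21.2 CPM in postnatal OPC. It was at 3.93, 3.74, 3.55 and 3.45 CPM in adult NSC and at 7.43, 7.62, 13 and 4.8 CPM in postnatal NSC. All OPC libraries lay above, and all adult libraries below, those of postnatal NSC. OPC exceeded postnatal NSC 3.61-fold (1.85 ± 0.31, edgeR adjusted p = 0.000449) and adult NSC 8.1-fold (3.02 ± 0.33, adjusted p = 1.46e-05). Adult NSC were 2.24-fold below postnatal NSC (-1.16 ± 0.32, edgeR adjusted p = 0.00887), the opposite direction to Nefl and Nefm. The exons of Ina overlap Nt5c2, on the opposite strand, over 14.1% of their length. Bfsp2, known from lens filaments, fell in OPC against postnatal NSC (1.73 ± 0.811 against 5.19 ± 2.82 CPM, -1.59 ± 0.41, edgeR adjusted p = 0.00717). Its exons overlap a gene on the opposite strand over 11.8% of their length.

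Linker genes, whose products tie filaments to other structures, moved in both directions. Of 8 tested, 1 rose and 2 fell in OPC against postnatal NSC (45.1% of all genes called). In adult against postnatal NSC 3 rose and 2 fell (53.1% of all genes). In OPC against adult NSC 1 rose and 4 fell (51%). Plec, which encodes the cross-linker plectin, was at 7.45, 10.1, 7.61 and 4.66 CPM in postnatal OPC, 60.9, 72.8, 37.7 and 66.5 CPM in adult NSC and 51.5, 59.2, 63.2 and 24.2 CPM in postnatal NSC. Every OPC library lay below every NSC library, while the NSC groups overlapped. It was 6.65-fold lower in OPC than in postnatal NSC (-2.73 ± 0.32, edgeR adjusted p = 4.75e-05) and 7.99-fold lower than in adult NSC (-2.99 ± 0.33, adjusted p = 1.43e-05). Adult and postnatal NSC did not differ by the test (0.26 ± 0.30, edgeR adjusted p = 0.468). The spectraplakin genes Macf1 and Dst, whose products link filaments or actin to microtubules, rose in adult against postnatal NSC. Macf1 averaged 558 ± 82.9 CPM against 313 ± 46.5 CPM (0.84 ± 0.14, edgeR adjusted p = 0.000446), and Dst 238 ± 49.3 CPM against 143 ± 24.2 CPM (0.73 ± 0.16, adjusted p = 0.00201).

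Among 6 genes of filament chaperones and turnover, 0 rose and 4 fell in OPC against postnatal NSC (median log2 fold change -1.16, against -0.01 over all genes). In adult against postnatal NSC 2 rose and 2 fell, and in OPC against adult NSC 0 rose and 3 fell. The shares of all genes called in these comparisons were 45.1%, 53.1% and 51%. Bag3, a co-chaperone gene of protein quality control, averaged 8.67 ± 4 CPM in postnatal OPC, 47.6 ± 4.62 CPM in adult NSC and 32.8 ± 13 CPM in postnatal NSC. It fell in OPC against postnatal NSC (-1.93 ± 0.36, edgeR adjusted p = 0.000954) and against adult NSC (-2.47 ± 0.36, adjusted p = 0.000142). Mid1, a ubiquitin ligase gene, fell against postnatal NSC in OPC (-1.13 ± 0.20, edgeR adjusted p = 0.000676) and in adult NSC (-1.11 ± 0.20, adjusted p = 0.000728). Other genes on the opposite strand overlap 17.9% of its exons. The ubiquitin ligase gene Trim2, whose product acts on the light neurofilament subunit, rose in adult against postnatal NSC (0.72 ± 0.12, edgeR adjusted p = 0.000451).

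Of 7 genes for kinases and a phosphatase that act on filament proteins, 2 rose and 1 fell in OPC against postnatal NSC. In adult against postnatal NSC 4 rose and 2 fell, and in OPC against adult NSC 1 rose and 1 fell. The shares of all genes called were 45.1%, 53.1% and 51%. The kinase gene Rock1 rose in OPC (106 ± 7.75 CPM, edgeR adjusted p = 4.45e-05) and in adult NSC (119 ± 4.63 CPM, adjusted p = 1.13e-05) against postnatal NSC (67.8 ± 4.56 CPM). Cdk5, a kinase gene of neurofilament tails, fell in OPC (-0.68 ± 0.15, edgeR adjusted p = 0.00288) and in adult NSC (-0.87 ± 0.15, adjusted p = 0.000574). Its activator gene Cdk5r1 was lower in adult than in postnatal NSC (18.1 ± 0.81 against 42 ± 12.3 CPM, -1.21 ± 0.21, edgeR adjusted p = 0.000677).

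At the nuclear envelope, 11 genes for inner membrane partners of lamins were tested. In OPC against postnatal NSC 2 rose and 3 fell, in adult against postnatal NSC 5 rose and 1 fell, and in OPC against adult NSC 0 rose and 6 fell. The called totals of 5, 6 and 6 of 11 are near the shares of all genes called (45.1%, 53.1% and 51%). Lemd3, which encodes the lamin partner MAN1, rose in OPC (28.7 ± 1.57 against 20.1 ± 1.47 CPM in postnatal NSC, 0.51 ± 0.09, edgeR adjusted p = 0.000532). Its relative Lemd2 fell (40.8 ± 4.7 against 54.9 ± 3.06 CPM, -0.43 ± 0.09, edgeR adjusted p = 0.00202). Lbr, the lamin B receptor gene, averaged 58.4 ± 15.3 CPM in OPC, 68 ± 6.15 CPM in adult NSC and 59.8 ± 10.8 CPM in postnatal NSC and was called in no comparison. It is named for its role and not by the rule for naming genes.

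The LINC complex joins lamins to the cytoskeleton through SUN proteins of the inner membrane and nesprins of the outer membrane. Of 6 genes tested, 0 rose and 1 fell in OPC against postnatal NSC (45.1% of all genes called). In adult against postnatal NSC 2 rose and 3 fell (53.1% of all genes). In OPC against adult NSC 2 rose and 2 fell (51%). The giant nesprin gene Syne2 was at 57.5, 39, 66.3 and 71.2 CPM in postnatal OPC, 225, 253, 137 and 235 CPM in adult NSC and 98.4, 107, 95.2 and 69.8 CPM in postnatal NSC. Adult libraries lay above all others. Adult NSC exceeded postnatal NSC 2.29-fold (1.20 ± 0.22, edgeR adjusted p = 0.000802), and OPC were 3.63-fold below adult NSC (-1.86 ± 0.22, adjusted p = 2.89e-05). OPC were also below postnatal NSC (-0.66 ± 0.22, edgeR adjusted p = 0.0246), but this call was lost without postnatal NSC 2 (adjusted p = 0.0576), without both libraries low in cell division RNA (-0.50, 0.0631) and with the Y-linked covariate (0.0999). The other giant nesprin gene, Syne1, rose in adult against postnatal NSC (63.5 ± 11.1 against 23 ± 9.34 CPM, 1.47 ± 0.29, edgeR adjusted p = 0.00122). Sun2 fell (37.1 ± 1.84 against 67.7 ± 14.5 CPM, -0.87 ± 0.16, edgeR adjusted p = 0.000909).

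Lamin processing genes act on the farnesylated tail of B-type lamins and of the lamin A precursor. Of 6 tested, 0 rose and 1 fell in OPC against postnatal NSC (45.1% of all genes called). In adult against postnatal NSC 2 rose and 3 fell (53.1% of all genes). In OPC against adult NSC 1 rose and 3 fell (51%). Zmpste24, which encodes the protease that matures lamin A, was at 69.1, 65.1, 73.8 and 74.3 CPM in postnatal OPC, 110, 103, 107 and 98.9 CPM in adult NSC and 69.1, 52.3, 51.7 and 72 CPM in postnatal NSC. Adult libraries lay above all others, and the postnatal groups overlapped. It was 1.71-fold higher in adult than in postnatal NSC (0.77 ± 0.11, edgeR adjusted p = 0.00019), while its substrate gene Lmna was lower there. In OPC against postnatal NSC it did not pass the test (0.20 ± 0.11, edgeR adjusted p = 0.152). Rce1, a protease gene of farnesylated tails, fell in OPC against postnatal NSC (17.9 ± 0.483 against 23.4 ± 1.73 CPM, -0.39 ± 0.09, edgeR adjusted p = 0.00302).

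**Figure D4:**
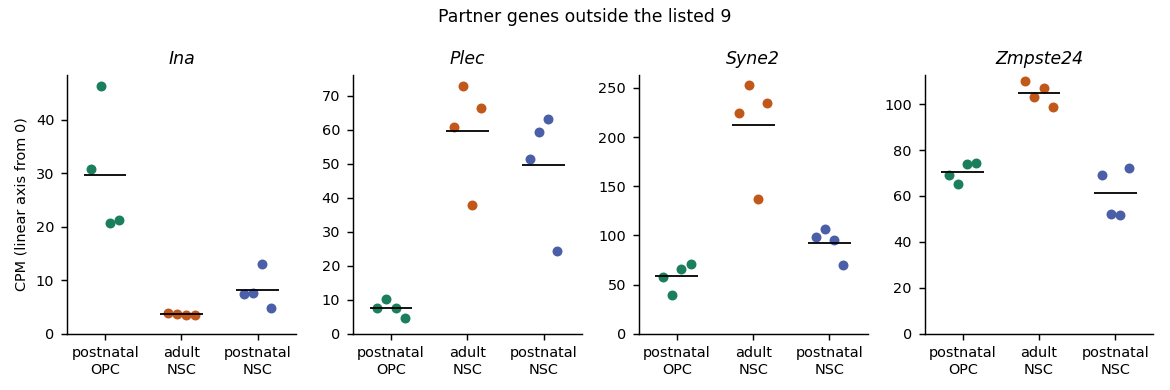
Level (CPM, linear axis from 0) of Ina, Plec, Syne2 and Zmpste24 with postnatal OPC, adult NSC and postnatal NSC side by side. Each point is a library and each line a group mean. The OPC libraries are highest for Ina and lowest for Plec, and the adult libraries are highest for Syne2 and Zmpste24.

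Genes with a similar profile were ranked by Pearson's correlation of log2 CPM over the 12 libraries among 10727 protein-coding genes, as a description with no test, since the libraries share groups and depth. Vim was most like Lfng (r = 0.995) and Pbxip1 (0.993), and Nes most like Acadl (0.993) and Lhfp (0.992). Lfng, a glycosyltransferase gene that modifies Notch, averaged 81.8 CPM in postnatal OPC, 263 CPM in adult NSC and 216 CPM in postnatal NSC. Lmna was most like the receptor kinase gene Tyro3 (0.982) and Plekha7 (0.980). Tyro3 averaged 59 CPM in OPC, 126 CPM in adult NSC and 163 CPM in postnatal NSC. Lmnb1 was most like Arhgap19 (0.978) and L3mbtl2 (0.976), and Lmnb2 most like Sart3 (0.932) and Gna11 (0.922). Gfap was most like Tmem205 (0.965) and Aldh2 (0.927), and Synm most like Tor1b (0.967) and Wasf3 (0.965). Nefl was most like Ddx10 (0.976), and Nefm most like Usf3 (0.985) and Birc6 (0.974). By Spearman's correlation none of these top genes was kept for Vim, Nes, Lmna, Lmnb2 or Nefm, and 1 of 2 was kept for each of the other 4 genes.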

How the data were processed

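RNA-seq read counts per gene, as deposited by the authors and not normalised, were used for 12 libraries. The notes of the submitters on processing name STAR, featureCounts 1.22.2, FastQC and the GRCm38 build, per the labels. The strand setting and annotation release are not given in the sources used here. Of 55401 identifiers, 55141 were found in GENCODE M21, which gave symbols and positions. Groups and replicate numbers came from the labels. The software was edgeR 4.0.16 and limma 3.58.1 under R 4.3.3, and Python 3.11.15. Genes kept by filterByExpr (minimum count 10, minimum total 15), 16135 in all, were scaled by TMM and fitted in one quasi-likelihood model of 12 libraries with a term per group (9 residual degrees of freedom, biological coefficient of variation 22.6%). Tests were two-sided, with Benjamini-Hochberg adjustment over all genes tested and calls under 0.05. CPM used TMM-scaled library sizes, and TPM used the union of a gene's exons. Intervals come from the model, which holds counting error and the spread between libraries. Within a group, every pair of libraries differed by more than sampling noise (chi-square over its degrees of freedom 3.98 or more), and no library was taken as a duplicate. On simulated counts with known changes, the fit recovered 27.9% to 31.3% of 1.5-fold, 50.9% to 62.1% of 2-fold and 84.9% to 94.7% of 4-fold changes. Only 121 to 133 genes per comparison were called there, far fewer than in the data. As the adjustment depends on that number, these rates need not hold for the data. A gene that did not pass the test may still differ. The 9 genes, the partner and marker lists and both doubted libraries were chosen with earlier results of these data known. From partner lists, up to 3 called genes per direction and comparison with at least 5 CPM could be named, by size of change, and some of these are not named here; for each of the 9 genes, the 2 most alike in profile are named, except 1 that is not reported here. Alternatives were RLE scaling, DESeq2 1.42.0, no low-count filter, a replicate block, each comparison's 2 groups alone, thinning to the smallest library, a Y-linked covariate, leaving out each library or both doubted ones, longest transcripts as gene length and Spearman's correlation.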

Additional observations from a re-analysis of the deposited data

Results flagged for a closer look

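Nes in postnatal OPC stood out for 1 library. Postnatal OPC 2 had 456 CPM, while the other 3 OPC libraries had 814 to 856 CPM, and the gap to the nearest library was 0.895 of the whole range of the group. Chance alone puts about 1 in 20 groups past the limit used, and 27 groups (9 genes in 3 groups) were looked at. The same library had the least Vim, Synm, Lmna, Lmnb1, Lmnb2 and Nefl RNA of the OPC libraries, and the most Gfap. It also had the least cell division RNA (1017 CPM) and the most OPC marker RNA (15028 CPM). What these have to do with each other was not tested.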

How the results depend on the processing

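Over 27 comparisons of the 9 genes, each under 20 alternatives, 507 of 540 values kept their direction and side of the threshold, and 19 of the 27 comparisons kept both throughout. Counts of all called genes stayed within 1.5 times. With the Y-linked covariate, OPC against postnatal NSC gave -1.77 for Gfap (adjusted p = 0.144; 0.00206 to 0.144 over the edgeR alternatives) and 0.42 for Lmnb1 (0.0536). Nes in adult against postnatal NSC lost its call with no low-count filter (0.40), the replicate block (0.44), the covariate (0.42) and when 9 of the 12 libraries were left out in turn (0.37 to 0.47 over all 12). Lmnb1 in OPC against adult NSC lost it with the replicate block (0.39), the covariate (0.35) and 6 of the 12 libraries left out in turn (0.32 to 0.52 over all 12). Nefl in OPC against adult NSC was called with only the 2 groups compared (-0.56). The uncalled Lmnb2 changed sign in OPC against postnatal NSC with no filter (-0.021), after thinning (-0.0099), without both doubted libraries (-0.063), with the covariate (-0.082) and without postnatal NSC 3 or OPC 1 (-0.15 to 0.091 over all 12 libraries left out in turn). It did so in adult against postnatal NSC without both libraries (-0.077) or without postnatal NSC 3 (-0.068 to 0.16 over all 12), and in OPC against adult NSC without both (0.014) or without OPC 2 (-0.15 to 0.016 over all 12). Syne2 in OPC against postnatal NSC lost its call with the replicate block (adjusted p = 0.0536). Plec in adult against postnatal NSC reached -0.0054 on leaving out postnatal NSC 4. The cause was not tested. Same-numbered libraries deviated from their group means with correlations of -0.363 to 0.325, and differently numbered ones with -0.413 to 0.414. These correlations cannot tell whether equal numbers mark the same litter, which the labels do not state. The 540 values are log2 fold changes and leave out levels and shares per length. With longest transcripts as gene length, the shares of Vim and Nes moved by more than their SD in every group. Gfap (14.3 TPM) then passed Nefl (9.34 TPM) in adult NSC.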
